A study of Homo sapiens with 4 samples.

Results

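Malignant plasma cells carry a set of surface proteins that antibodies, engineered T cells and other drugs of multiple myeloma are directed against. The 10 genes examined here encode such antigens: the B cell maturation antigen BCMA (TNFRSF17) and its relatives TACI (TNFRSF13B) and the BAFF receptor (TNFRSF13C), syndecan-1 (SDC1, CD138), CD38, SLAMF7 (CS1), FCRL5, GPRC5D, CD47 and LY9 (CD229). They were taken from a list of names, and each matched 1 of the 63677 genes in the count files. RNA sequencing of ribosomal RNA-depleted total RNA was compared between H929 cells carrying an ILF2 shRNA (2 libraries) and H929 cells carrying a non-silencing shRNA (2 libraries). H929 is an established human multiple myeloma cell line, grown here in RPMI medium, and all 4 libraries come from this single line. A short hairpin RNA (shRNA) lowers a transcript by RNA interference, and ILF2 encodes a subunit of a complex that binds double-stranded RNA. The submitters describe the 2 libraries of a group as independent. The labels do not say whether they stem from separate transductions or use 1 hairpin sequence, so every p-value reflects the spread between these libraries alone, which may be technical.

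The antigens belong to several families. BCMA, TACI and the BAFF receptor are tumour necrosis factor receptors for the ligand BAFF, and BCMA and TACI also bind the ligand APRIL. These ligands keep B cells and plasma cells alive, and BCMA is the form typical of plasma cells. Syndecan-1 is a heparan sulfate proteoglycan that is the classical plasma cell marker, and CD38 is an ectoenzyme that consumes NAD. SLAMF7 and LY9 are receptors of the SLAM family, FCRL5 is an immunoglobulin-binding receptor, GPRC5D is an orphan G protein-coupled receptor and CD47 gives macrophages a signal that restrains phagocytosis.

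The libraries held between 63459322 and 72977082 counted fragments, with mitochondrial shares of 0.516% and 0.463% in the ILF2 shRNA libraries and 0.351% and 0.307% in the non-silencing libraries. ILF2 itself averaged 111 ± 5.13 CPM in ILF2 shRNA and 725 ± 11.6 CPM in non-silencing cells (SD, n = 2 each; CPM, or counts scaled to a library size adjusted by TMM, the trimmed mean of M values, per 1e6), so that 15.3% of the non-silencing level remained. Of 10 plasma cell markers, all 10 had a mean of at least 1 CPM, among them XBP1, IRF4 and JCHAIN. For B cells this held for 1 of 6 markers (CR2), for T and NK cells for 1 of 6 (CD3E), and for myeloid, erythroid or platelet, and stromal or endothelial markers for 0 of 6, 0 of 5 and 0 of 5. The summed CPM of the T and NK cell markers was 17.0 and 18.0 in ILF2 shRNA libraries and 8.98 and 8.24 in non-silencing libraries, nearly all of it CD3E. CD3D, the partner of CD3E in the T cell receptor complex, stayed between 0.0139 and 0.0270 CPM. The summed CPM of the plasma cell markers was 14917.1 and 15025.6 in ILF2 shRNA libraries and 12698.5 and 12999.5 in non-silencing libraries. JCHAIN, the most abundant of them, had 7682 and 7594 CPM against 5594 and 5937 CPM. SDC1 and SLAMF7 were lower with ILF2 shRNA, and XBP1 overlapped between the groups. This sum includes the antigens SDC1, CD38, TNFRSF17 and SLAMF7. Mitochondrial share, CD3E and the plasma cell marker sum thus moved with the groups, and their part in the results was not tested.

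In ILF2 shRNA cells FCRL5 and LY9 were higher, by 1.73-fold and 1.54-fold, and these were the clearest differences among the antigens. CD38 and TNFRSF17 were higher by 1.21-fold and 1.19-fold. SDC1 and SLAMF7 were lower, at 84.8% and 83.7% of the non-silencing level. GPRC5D and CD47 did not pass the test, and the receptors TNFRSF13B and TNFRSF13C were near the limit of detection. Calls required an adjusted p under 0.05 in edgeR's quasi-likelihood test over 19142 genes. Of the 10 antigens 9 passed the low-count filter, and 6 of these were called, 4 higher and 2 lower. Over all tested genes 20.3% were called, 10.2% higher and 10.1% lower, and over those averaging 10 CPM or more 25.0% were called, 12.9% higher and 12.1% lower. DESeq2 called 6 antigens too, against 14.3% of all tested genes. The calls of the 4 smaller changes were lost when either control library was left out, while their directions stayed. In such a fit the ILF2 shRNA pair alone gives the spread and the lone control is assumed to vary like it, and the SE of SLAMF7, for example, was 0.10, against 0.07 with all 4 libraries. With non-silencing replicate 1 left out, and likewise with its partner, replicate 2, left out, 2 antigens were called (FCRL5 and LY9), where 10.8% and 10.5% of tested genes were called. With ILF2 shRNA replicate 1 left out 8 antigens and 18.6% of tested genes were called, and with ILF2 shRNA replicate 2 left out 6 antigens and 15.3%. In 8 of the 9 tested antigens the 2 groups did not overlap, as in 56.5% of all tested genes and 60.4% of those averaging 10 CPM or more. In bulk RNA of this kind, fewer cells with a transcript and less of it per cell cannot be told apart.

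**Figure D1:**
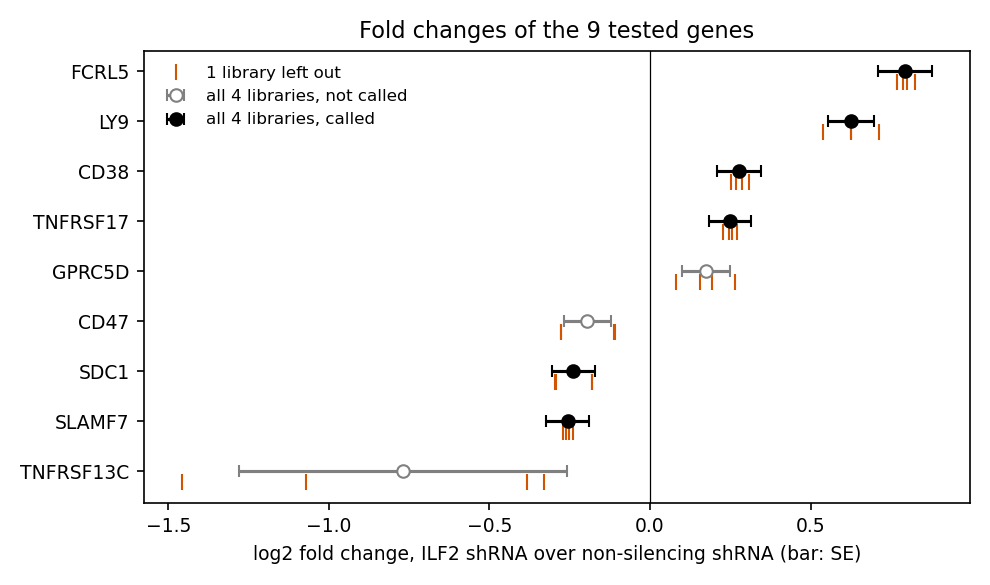
Log2 fold change of ILF2 shRNA over non-silencing shRNA cells for the 9 tested antigen genes (points, with SE as bars; filled points are called at an edgeR adjusted p under 0.05), and the values with 1 library left out (orange ticks). FCRL5 at 0.79 and LY9 at 0.63 lie farthest to the right, and the ticks of all genes stay on the side of their point.

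The promoter sequences of the called antigens show how unlike their start regions are in base composition. RefSeq's table (GRCh38.p14) holds an entry for 6 of the 10 genes, 3 of them called (FCRL5, CD38 and SDC1), and none for TNFRSF17, TNFRSF13C, SLAMF7 and LY9. The 250 bases before each start are given 5′ to 3′ on the gene's strand. SDC1 has a pair of starts in the table. Capitals mark matches, on either strand, to the GC box GGGCGG, the TATA box TATAAA, the E-box CACGTG or the core of the interferon response element (GAAA, any 2 bases, then GAAA).
FCRL5 (chr1:157552516-157552765, minus strand): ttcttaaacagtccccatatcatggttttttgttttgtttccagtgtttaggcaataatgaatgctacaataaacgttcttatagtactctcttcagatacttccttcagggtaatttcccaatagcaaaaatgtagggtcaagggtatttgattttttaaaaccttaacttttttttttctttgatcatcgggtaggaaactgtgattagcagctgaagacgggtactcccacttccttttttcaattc
CD38 (chr4:15778078-15778327, plus strand): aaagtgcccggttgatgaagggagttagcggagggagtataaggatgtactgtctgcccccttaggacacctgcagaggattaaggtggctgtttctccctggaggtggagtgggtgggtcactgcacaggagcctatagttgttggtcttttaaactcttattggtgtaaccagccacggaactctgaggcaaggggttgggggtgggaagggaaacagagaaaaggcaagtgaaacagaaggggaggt
SDC1, first start (chr2:20225476-20225725, minus strand): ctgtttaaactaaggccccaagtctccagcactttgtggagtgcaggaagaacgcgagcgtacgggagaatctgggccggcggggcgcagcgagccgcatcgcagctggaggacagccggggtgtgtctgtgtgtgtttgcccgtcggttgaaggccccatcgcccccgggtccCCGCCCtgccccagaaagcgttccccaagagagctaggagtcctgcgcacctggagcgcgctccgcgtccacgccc
SDC1, second start (chr2:20225131-20225380, minus strand): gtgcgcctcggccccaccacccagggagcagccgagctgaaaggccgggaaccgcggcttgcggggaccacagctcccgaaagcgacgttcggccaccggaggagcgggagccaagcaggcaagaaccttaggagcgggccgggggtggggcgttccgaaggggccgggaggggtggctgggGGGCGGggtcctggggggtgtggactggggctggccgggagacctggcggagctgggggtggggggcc
G and C made up 34.8% of the FCRL5 promoter and 52.4% of the CD38 promoter, and 66.4% and 75.2% of the SDC1 promoters. The median over 35097 promoters was 58.0%, with a middle range (quartiles) of 46.4% to 68.0%. Each SDC1 promoter held 1 GC box, a motif found in 42.6% of all promoters, and those of FCRL5 and CD38 held none. None of the 4 held the TATA box, the E-box or the interferon element, which stand in 10.7%, 6.34% and 3.02% of all promoters. GPRC5D was the only one of the 6 genes with a TATA box match, 2 in number, and the CD47 promoter held 6 GC boxes. These are letter matches in this window and say nothing about binding.

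Levels between genes were compared per length, as CPM per kilobase of the annotated exons (RPKM). TNFRSF17 had the highest level, at 548 ± 1.78 RPKM in ILF2 shRNA and 460 ± 9.51 RPKM in non-silencing cells (SD, n = 2 each). SDC1 was next at 255 ± 14.4 RPKM in ILF2 shRNA cells and 301 ± 16.6 RPKM in non-silencing cells. SLAMF7 followed at 51.5 ± 0.695 RPKM in ILF2 shRNA and 61.6 ± 0.273 RPKM in non-silencing cells, GPRC5D at 45.2 ± 4.04 and 40.0 ± 0.749 RPKM and CD38 at 20.2 ± 0.581 and 16.6 ± 0.167 RPKM in the same order of groups. The ranges of SLAMF7 and GPRC5D were separate in each group. CD47 and LY9 changed places. In ILF2 shRNA cells they had 7.85 ± 0.644 and 8.74 ± 0.735 RPKM, a difference within the spread of the libraries, and in non-silencing cells 8.99 ± 0.735 and 5.66 ± 0.00493 RPKM. FCRL5 stood at 1.99 ± 0.0571 RPKM in ILF2 shRNA and 1.15 ± 0.00763 RPKM in non-silencing cells. TNFRSF13C and TNFRSF13B were under 1 RPKM in every library. The annotated exons of all transcripts are merged in the length, 12440 bases for FCRL5 and 1118 for TNFRSF17, so a gene with long alternative exons is given a lower RPKM than its main transcript would have.

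**Figure D2:**
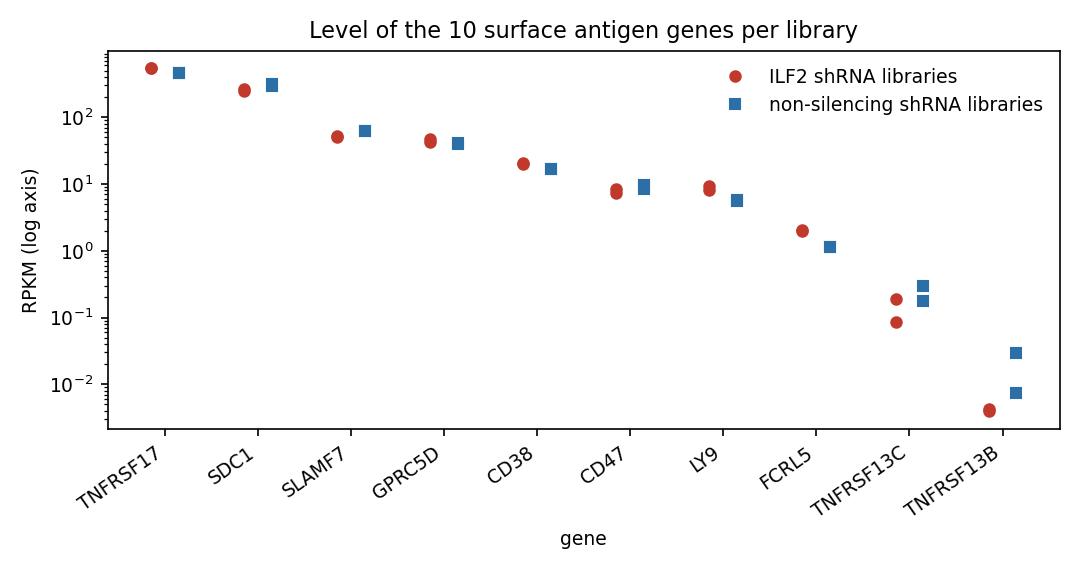
Level in RPKM (log axis) of each antigen gene in the 2 ILF2 shRNA libraries (circles) and the 2 non-silencing libraries (squares), ordered by the mean over the 4 libraries. Levels run from 504 RPKM for TNFRSF17 and 278 RPKM for SDC1, as means of the 4 libraries, to under 1 RPKM for TNFRSF13C and TNFRSF13B, and CD47 and LY9 change places between the groups.

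Among the BAFF and APRIL receptors, TNFRSF17 carried nearly all the signal. TNFRSF17 (ENSG00000048462, GRCh37 chromosome 16, 12058964 to 12061925, plus strand) had 611 and 614 CPM in ILF2 shRNA libraries, against 507 and 522 CPM in non-silencing libraries. Both ILF2 shRNA libraries lay above both controls, and the log2 fold change was 0.25 (± 0.07 SE; adjusted p = 0.0031 by edgeR). The call ended when either control library was left out, although the log2 fold change was then 0.23 (adjusted p = 0.18, replicate 1 left out) and 0.27 (adjusted p = 0.090, replicate 2 left out). TNFRSF13B, the receptor TACI (ENSG00000240505, chromosome 17, 16832849 to 16875432, minus strand), had 1 and 1 fragments in ILF2 shRNA libraries and 8 and 2 in non-silencing libraries and was too low to test. It shares 761 of its 3696 exon bases with TBC1D27P on the same strand, and fragments there cannot be assigned to either gene. The BAFF receptor gene TNFRSF13C (ENSG00000159958, chromosome 22, 42321045 to 42322822, minus strand) had 5 and 12 fragments in ILF2 shRNA libraries and 20 and 12 in non-silencing libraries. These groups touch, and its log2 fold change of -0.77 (± 0.51 SE; adjusted p = 0.32 by edgeR) did not pass.

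Of the ligand genes, only that of BAFF could be read in these cells, and it gave almost no signal. TNFSF13B, which encodes BAFF, stayed at or under 0.121 CPM. TNFSF13, which encodes APRIL, had 0 fragments in all 4 libraries, as did TNFSF12 and TNFSF12-TNFSF13, with which it shares 58.4% and 58.0% of its exon bases on the same strand, so that its level cannot be read from these counts. Of 14 genes listed for this pathway, the receptors included, 11 were tested, of which 4 rose and 1 fell. Beside this and the later list counts stand the shares over all tested genes, 10.2% called higher and 10.1% lower. Of tested genes averaging 10 CPM or more, 12.9% were called higher and 12.1% lower. CAMLG, which encodes the TACI interactor CAML, rose with a log2 fold change of 0.39 (adjusted p = 6.1e-05 by edgeR), and TRAF3, which encodes the adaptor that holds back the NF-kB kinase NIK, rose by 0.36 (adjusted p = 0.00015). BIRC3, a ubiquitin ligase gene of the same complex, rose by 0.37 (adjusted p = 0.035), but the call ended in 7 of 14 alternative settings. Among these were DESeq2, limma-voom, upper-quartile factors and the fits without either non-silencing library. Leaving out ILF2 shRNA replicate 1 gave 0.14 for BIRC3 (adjusted p = 0.60), and leaving out ILF2 shRNA replicate 2 gave 0.58. The adaptor gene TRAF5 fell, with a log2 fold change of -0.50 (adjusted p = 0.0058), a call that ended with DESeq2 and without non-silencing replicate 1. For the list as a whole, DESeq2 called 3 rises and 0 falls. Leaving out non-silencing replicate 1 gave 2 and 0, and leaving out its partner, replicate 2, gave 2 and 1.

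BCMA is shed from the cell by gamma-secretase, a protease complex of the membrane. Of 8 genes for this enzyme and for the sheddases ADAM10 and ADAM17, 2 rose and 0 fell in edgeR. Counts were equal in DESeq2 and at an unadjusted p under 0.05. Over all tested genes edgeR called 20.3% and DESeq2 14.3%. The rises were NCSTN, which encodes the subunit nicastrin (log2 fold change 0.22, adjusted p = 0.018 by edgeR), and ADAM10 (0.20, adjusted p = 0.032). Leaving out either non-silencing library left 0 rises, and leaving out either ILF2 shRNA library left 1. ADAM10 had a log2 fold change of 0.12 without ILF2 shRNA replicate 1 (adjusted p = 0.26), and NCSTN one of 0.18 without ILF2 shRNA replicate 2 (adjusted p = 0.10).

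SDC1 (ENSG00000115884, chromosome 2, 20400558 to 20425194, minus strand), the most abundant of the antigens in counts, had 881 and 954 CPM in ILF2 shRNA libraries, against 1125 and 1040 CPM in non-silencing libraries. Both ILF2 shRNA libraries were lower than both controls, though the spread inside each group was wide beside the difference. The log2 fold change was -0.24 (± 0.07 SE; adjusted p = 0.0062 by edgeR). The call ended at -0.18 with non-silencing replicate 1 left out (adjusted p = 0.33) and at -0.29 with replicate 2 left out (adjusted p = 0.057).

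Of 25 genes for syndecans and heparan sulfate, 23 were tested, of which 5 rose and 2 fell, SDC1 being 1 of the falls. Among all tested genes 20.3% were called. SDC2 rose with a log2 fold change of 0.68 (adjusted p = 0.00025 by edgeR) and SDC3 fell with one of -0.63 (adjusted p = 0.0020), both from low levels. SDC2 had 3.55 and 3.25 CPM in ILF2 shRNA libraries and 2.02 and 2.21 CPM in non-silencing libraries. NDST1, which encodes a sulfotransferase that modifies heparan sulfate, had 51.9 and 54.8 CPM in ILF2 shRNA libraries, against 40.6 and 35.7 CPM in non-silencing libraries, a log2 fold change of 0.48 (adjusted p = 1.4e-06). B4GALT7, which builds the linker of the sugar chain, rose by 0.32 (adjusted p = 0.0021), a call that ended without replicate 2 of either group. Heparanase (HPSE), which trims the chain, had 0.832 and 1.11 CPM in ILF2 shRNA libraries and 1.27 and 1.11 CPM in non-silencing libraries. With non-silencing replicate 1 left out, and likewise with replicate 2 left out, 3 rose and 1 fell, and 3 rose and 3 fell without ILF2 shRNA replicate 2.

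CD38 (ENSG00000004468, chromosome 4, 15779898 to 15854853, plus strand) had 141 and 135 CPM in ILF2 shRNA libraries, against 113 and 115 CPM in non-silencing libraries. The groups were separate, and the log2 fold change was 0.28 (± 0.07 SE; adjusted p = 0.0016 by edgeR). The call ended when non-silencing replicate 1 (adjusted p = 0.090) or replicate 2 (adjusted p = 0.059) was left out, at log2 fold changes of 0.27 and 0.29. Relative to SDC1 counted in the same library, which is free of any scaling between libraries, CD38 stood at 0.160 and 0.142 in ILF2 shRNA libraries and 0.101 and 0.110 in non-silencing libraries. The same ratio for TNFRSF17 was 0.693 and 0.643 in ILF2 shRNA libraries, against 0.451 and 0.502 in non-silencing libraries, so CD38 and TNFRSF17 were both higher relative to SDC1 with ILF2 shRNA, CD38 by 1.43-fold. SDC1 itself was called lower, and these ratios hold both changes.

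CD38 was measured beside 13 other genes of NAD and adenosine metabolism, of which 12 were matched and 9 tested. Of these 9, 1 rose and 4 fell, where 20.3% of all tested genes were called. NT5E, which encodes the AMP-hydrolysing ectoenzyme CD73, rose by a log2 fold change of 0.46 (adjusted p = 0.0026 by edgeR), with 5.49 and 5.78 CPM in ILF2 shRNA and 3.83 and 4.36 CPM in non-silencing libraries, and this call was lost with non-silencing replicate 1 left out. ADA, the adenosine deaminase gene, fell to 123 and 135 CPM in ILF2 shRNA libraries, against 180 and 178 CPM in non-silencing libraries (log2 fold change -0.48, adjusted p = 1.9e-07). SARM1, which encodes an intracellular NAD hydrolase, fell with a log2 fold change of -0.46 (adjusted p = 0.00011), and NMNAT1, which encodes a nuclear enzyme of NAD synthesis, with one of -0.40 (adjusted p = 0.0044), a call that ended without replicate 2 of either group. BST1, the paralogue of CD38, stayed at or under 0.0810 CPM. With CD38 included, 2 rose and 4 fell. Leaving out non-silencing replicate 1 gave 0 and 4, and leaving out replicate 2 gave 1 and 2.

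**Figure D3:**
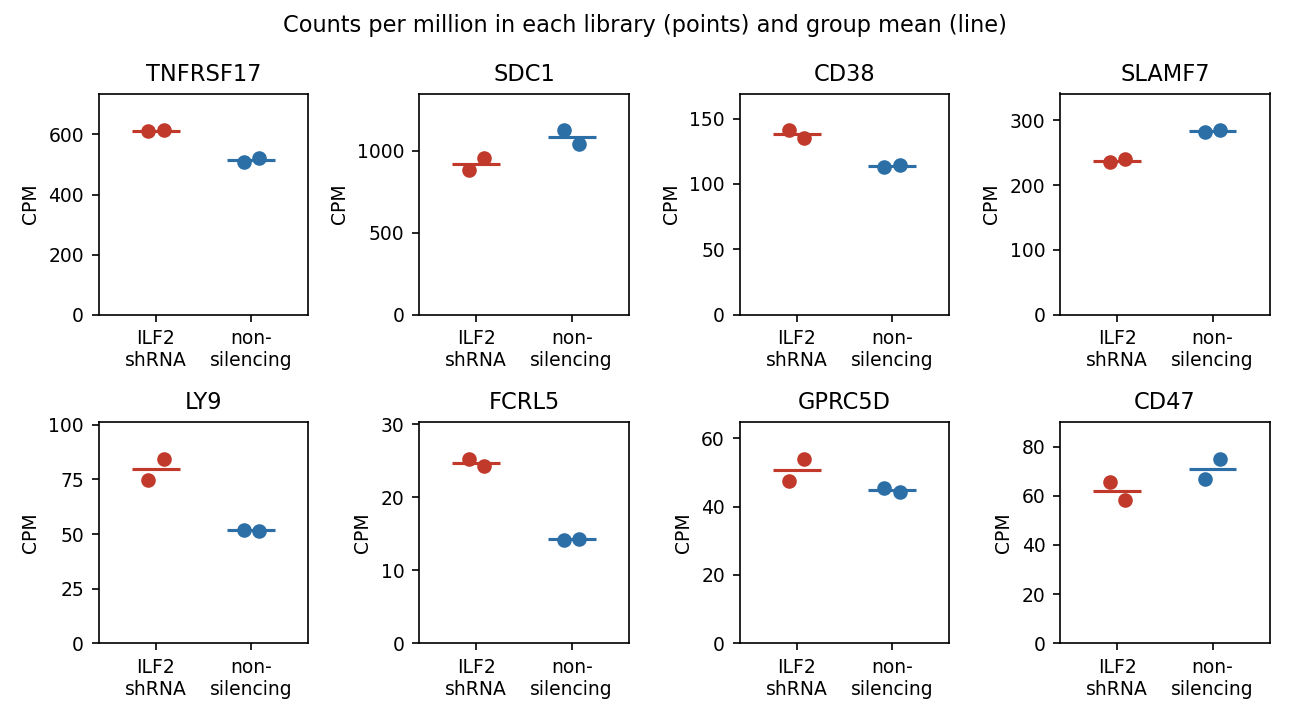
CPM of the 8 more abundant antigen genes in each library (points) and the group mean (line), with ILF2 shRNA left and non-silencing right, and every axis starting at 0. LY9 at 74.9 and 84.4 CPM and FCRL5 at 25.2 and 24.2 CPM in ILF2 shRNA libraries stand well above their controls, while the other 6 genes differ by smaller steps.

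SLAMF7 and LY9 lie next to each other on the long arm of chromosome 1, on the same strand, with 41252 bases and 0 annotated genes between them, and they moved in opposite directions. SLAMF7 (ENSG00000026751, chromosome 1, 160709037 to 160724611) had 235 and 240 CPM in ILF2 shRNA libraries, against 283 and 284 CPM in non-silencing libraries. The replicates agreed closely, and the log2 fold change was -0.26 (± 0.07 SE; adjusted p = 0.0027 by edgeR). The call ended without non-silencing replicate 1 (log2 fold change -0.26, adjusted p = 0.090) and without replicate 2 (-0.25, adjusted p = 0.11). LY9 (ENSG00000122224, chromosome 1, 160765864 to 160798051) had 74.9 and 84.4 CPM in ILF2 shRNA libraries, against 51.7 and 51.6 CPM in non-silencing libraries. Its log2 fold change was 0.63 (± 0.07 SE; adjusted p = 8.3e-10 by edgeR), and it ran from 0.54 to 0.71 with 1 library left out, called each time. The count ratio of LY9 to SLAMF7 was 0.319 and 0.352 in ILF2 shRNA libraries and 0.183 and 0.181 in non-silencing libraries, 1.84-fold higher with ILF2 shRNA, a value that holds the change of both genes. With 2 libraries a group, an exact permutation test on this ratio cannot reach the usual threshold, and none was run.

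Of 13 SLAM family and adaptor genes, 8 were tested, of which 3 rose and SLAMF7 was the 1 that fell. The share called among all tested genes was 20.3%. SLAMF6 rose with a log2 fold change of 1.43 (± 0.28 SE; adjusted p = 7.2e-05 by edgeR) from a low level, 0.785 and 1.13 CPM in ILF2 shRNA libraries against 0.351 and 0.361 CPM in non-silencing libraries. CD48, the ligand gene of the family and by far its most abundant member here, had 500 and 515 CPM in ILF2 shRNA libraries and 437 and 455 CPM in non-silencing libraries (log2 fold change 0.19, adjusted p = 0.033), a call that ended without either non-silencing library or without ILF2 shRNA replicate 2. CD48 lies 27395 bases before SLAMF7. SLAMF1, CD84, CD244 and SLAMF8 were too low to test. The adaptor gene SH2D1A (SAP), through which several receptors of the family signal in T and NK cells, stayed at or under 0.0416 CPM. The adaptor gene SH2D1B (EAT-2) had 0.941 and 1.18 CPM in ILF2 shRNA libraries and 1.04 and 0.888 CPM in non-silencing libraries. With either non-silencing library left out, 2 genes rose and 0 fell, and with ILF2 shRNA replicate 2 left out, 2 rose and 1 fell.

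FCRL5 (ENSG00000143297, chromosome 1, 157483167 to 157522310, minus strand) had the largest fold change of the called antigens. Its counts were 1608 and 1677 fragments in ILF2 shRNA libraries, against 1051 and 1032 in non-silencing libraries, or 25.2 and 24.2 CPM against 14.2 and 14.3 CPM. The replicates of each group lay close together, and far less apart than the groups. The log2 fold change was 0.79 (± 0.08 SE; adjusted p = 5.7e-11 by edgeR), between 0.77 and 0.82 with 1 library left out, and called in all 14 alternative settings. Relative to LY9 in the same library, which was higher too, FCRL5 had a count ratio of 0.337 and 0.287 in ILF2 shRNA libraries and 0.275 and 0.277 in non-silencing libraries, 1.13-fold higher with ILF2 shRNA. Pattern over the 4 libraries was compared by Euclidean distance between centred log2 CPM, among 12984 named genes with a mean of 1 CPM or more. Nearest to FCRL5 were HSD11B2 on chromosome 16, DQX1 on chromosome 2 and RHOBTB3 on chromosome 5. Their distances were 0.0400, 0.0401 and 0.0522 and their log2 fold changes 0.82, 0.83 and 0.76. Fold changes like that of FCRL5 follow from this choice of genes. HSD11B2 and DQX1 were low, between 0.735 and 1.44 CPM in every library.

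The relatives of FCRL5 went both ways. Of 10 Fc receptor-like and associated phosphatase genes, FCRL5 included, 9 were tested, of which 4 rose and 1 fell. Without FCRL5, 8 were tested, of which 3 rose and 1 fell. Called among all tested genes were 20.3%. FCRL2 had 80.9 and 82.6 CPM in ILF2 shRNA libraries, against 67.1 and 71.3 CPM in non-silencing libraries (log2 fold change 0.24, adjusted p = 0.0091 by edgeR). FCRLA rose by 0.29 (adjusted p = 0.0089) and FCRL1 by 0.63 (adjusted p = 0.022). FCRL3 fell, with a log2 fold change of -0.48 (adjusted p = 0.0088). FCRL4 had 0.314 and 0.520 CPM in ILF2 shRNA libraries and 0.175 and 0.236 CPM in non-silencing libraries and did not pass (adjusted p = 0.052). The phosphatase genes PTPN6 (SHP-1) and PTPN11 (SHP-2), which act on the inhibitory tails of these receptors, did not pass either, with log2 fold changes of -0.13 and -0.06. These receptors are paralogues, and fragments from stretches they share may be split or left out. The call of FCRL5 was the only one of the 5 that remained without non-silencing replicate 1. When its replicate 2 was left out, the calls of FCRL5, FCRL1 and FCRL3 remained, without ILF2 shRNA replicate 2 those of FCRL5 and FCRL2, and with DESeq2 those of FCRL5, FCRL2 and FCRLA. FCRL1 had a log2 fold change of 0.36 without ILF2 shRNA replicate 2 (adjusted p = 0.41).

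The stretch of chromosome 1 from FCRL5 to LY9 (157483167 to 160798051) held 43 tested genes, with a median log2 fold change of 0.24, against 0.00 over all tested genes. Of these, 14 were called higher and 2 lower, or 37.2%, against 20.3% of all tested genes (10.2% higher and 10.1% lower). The ends of the stretch were set by FCRL5 and LY9, themselves called, so these shares are a description. FCRL5 and LY9 are among the 14 and SLAMF7 is 1 of the 2. ILF2 lies on the same arm, 3839642 bases before FCRL5.

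**Figure D4:**
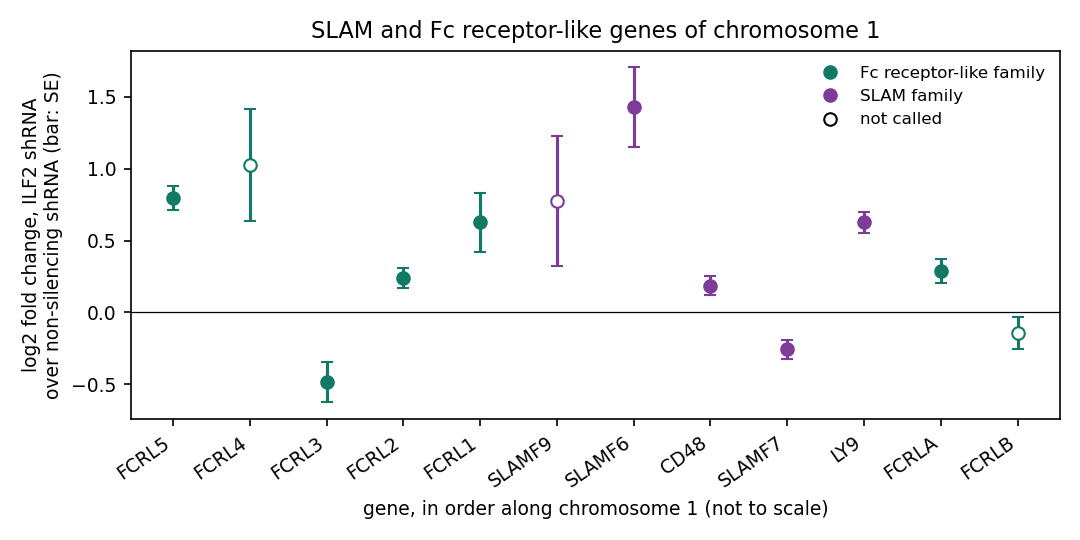
Log2 fold change (points, with SE as bars) of the tested Fc receptor-like and SLAM family genes, in their order along chromosome 1, which is not drawn to scale; open points were not called. SLAMF7 at -0.26 stands between CD48 at 0.19 and LY9 at 0.63, and FCRL3 at -0.48 between FCRL4 at 1.03 and FCRL2 at 0.24.

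GPRC5D (ENSG00000111291, chromosome 12, 13093709 to 13105081, minus strand) had 47.6 and 54.0 CPM in ILF2 shRNA libraries, against 45.6 and 44.4 CPM in non-silencing libraries. The groups did not overlap, but the ILF2 shRNA libraries differed from each other more than the nearer of them from the controls. The log2 fold change of 0.17 (± 0.08 SE; adjusted p = 0.093 by edgeR) did not pass; it was 0.27 and passed without ILF2 shRNA replicate 1 (adjusted p = 0.0100), and was 0.08 without ILF2 shRNA replicate 2 (adjusted p = 0.60). Of the other 3 genes of its family, GPRC5A was too low to test. GPRC5B had 1.26 and 1.56 CPM in ILF2 shRNA libraries and 1.71 and 1.33 CPM in non-silencing libraries, and GPRC5C 0.141 and 0.318 against 0.297 and 0.375 CPM. By edgeR, DESeq2 and at an unadjusted p under 0.05, 0 of these relatives passed.

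CD47 (ENSG00000196776, chromosome 3, 107762145 to 107809872, minus strand) had 65.6 and 58.4 CPM in ILF2 shRNA libraries, against 66.9 and 75.1 CPM in non-silencing libraries. All 4 values were close, with the higher ILF2 shRNA library just under the lower control. The log2 fold change of -0.20 (± 0.07 SE; adjusted p = 0.052 by edgeR) did not pass, and it ran from -0.28 to -0.11 with 1 library left out, passing without ILF2 shRNA replicate 1 (adjusted p = 0.0054).

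Of 9 genes for CD47, its ligands and its modifiers, 7 were tested. By edgeR 2 of them rose and 0 fell, where 20.3% of all tested genes were called. An unadjusted p under 0.05 was reached by 3 higher and 3 lower genes. DESeq2 called 1 of each direction, and 14.3% of all tested genes. QPCTL, which encodes the glutaminyl cyclase that forms the end of CD47 bound by SIRP alpha, had 37.5 and 41.7 CPM in ILF2 shRNA libraries, against 29.3 and 29.4 CPM in non-silencing libraries. Its log2 fold change of 0.43 (± 0.08 SE; adjusted p = 1.9e-05 by edgeR) was called in all 14 alternative settings. SIRPG, a receptor gene of CD47, had 0.157 and 0.260 CPM in ILF2 shRNA libraries and 0.0540 and 0.0555 CPM in non-silencing libraries, and although called (adjusted p = 0.018) it rests on few fragments. CALR, which encodes the pro-phagocytic signal calreticulin, had 1404 and 1455 CPM in ILF2 shRNA libraries and 1283 and 1289 CPM in non-silencing libraries (log2 fold change 0.15, adjusted p = 0.092). Only QPCTL was called when either non-silencing library or ILF2 shRNA replicate 2 was left out, while 3 rose and 1 fell when ILF2 shRNA replicate 1 was.

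Other surface antigens of myeloma and B-lineage cells were set beside the 10. Of 45 listed, 44 were matched and 37 tested, of which 11 rose and 5 fell. Set beside this are 10.2% called higher and 10.1% called lower among all tested genes. ICAM1, an adhesion molecule gene, fell to 49.5 and 56.0 CPM in ILF2 shRNA libraries, against 77.6 and 76.7 CPM in non-silencing libraries (log2 fold change -0.55, adjusted p = 2.9e-08 by edgeR). The chemokine receptor gene CCR10 had a log2 fold change of -0.62 (adjusted p = 1.3e-06). CD44, a hyaluronan receptor gene, had 712 and 711 CPM in ILF2 shRNA libraries, against 565 and 525 CPM in non-silencing libraries (log2 fold change 0.38, adjusted p = 7.8e-06), and the inhibitory receptor gene LILRB1 rose by 0.50 (adjusted p = 1.0e-05). All 4 calls held in every alternative setting. The B cell antigen genes MS4A1 (CD20) and CD22 and the invariant chain gene CD74 stayed at or under 0.110 CPM. Leaving out non-silencing replicate 1 gave 3 rises and 3 falls, leaving out its replicate 2 gave 4 and 3, and leaving out ILF2 shRNA replicate 2 gave 7 and 7.

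Myeloma drugs also act inside the cell, and 20 such targets were listed, all of them tested. Of the 20, 2 rose and 5 fell, where 20.3% of all tested genes were called. CRBN, which encodes cereblon, the ubiquitin ligase receptor bound by thalidomide and its analogues, had 22.5 and 20.6 CPM in ILF2 shRNA libraries, against 29.5 and 32.6 CPM in non-silencing libraries (log2 fold change -0.53, ± 0.08 SE; adjusted p = 9.5e-07 by edgeR). CUL4A, which encodes the cullin of the same ligase, fell with a log2 fold change of -0.31 (adjusted p = 0.0011), and XPO1, the nuclear exporter gene targeted by selinexor, with one of -0.36 (adjusted p = 2.8e-05). These 3 calls held in every alternative setting. Transcripts of the cereblon substrates IKZF1 and IKZF3 had log2 fold changes of 0.14 each and did not pass (adjusted p = 0.14 and 0.16). PSMB5, the proteasome subunit bound by bortezomib, had one of 0.01 and did not pass. The proteasome subunit gene PSMB8 fell by edgeR (-0.23, adjusted p = 0.021), as did HDAC6 (-0.21, adjusted p = 0.030), and NR3C1 rose (0.22, adjusted p = 0.014). MCL1, an antiapoptotic gene, rose by 0.21 (adjusted p = 0.013), a call that ended without either non-silencing library. With either non-silencing library left out, 0 rose and 3 fell.

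**Figure D5:**
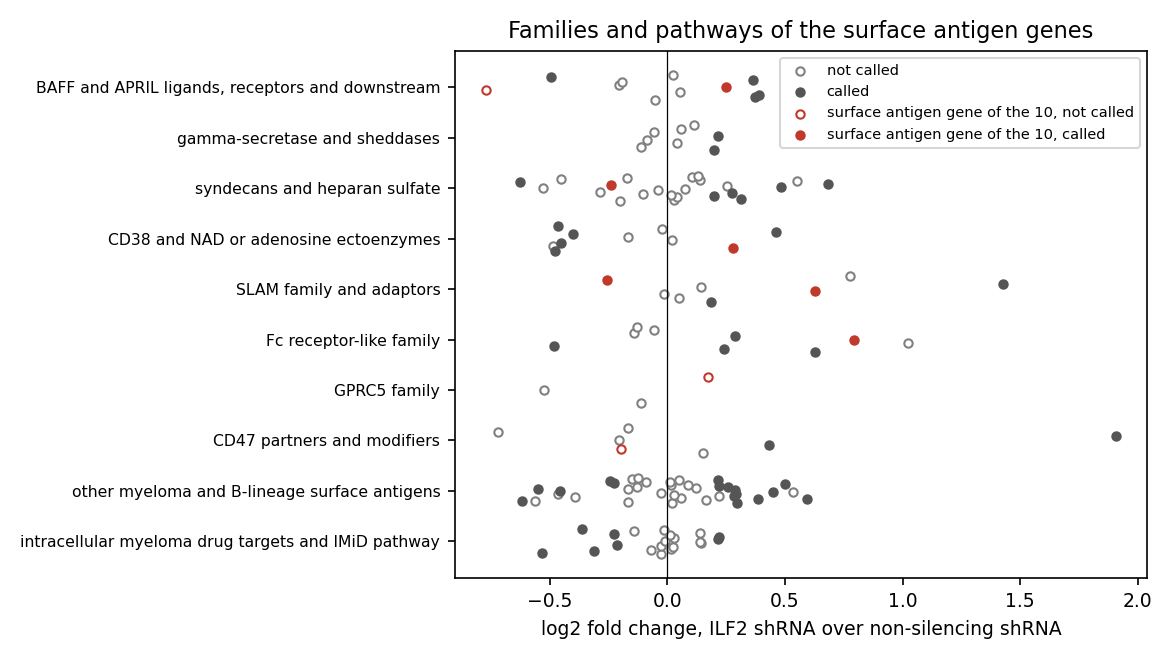
Log2 fold change of each tested gene in the 10 lists (points; filled when called at an edgeR adjusted p under 0.05, red for the antigen genes themselves). Most points lie within 0.5 of 0 in both directions, and no list lies wholly on one side among its called genes except the gamma-secretase and CD47 partner lists, with 2 rises each.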

How the data were processed

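The deposited files hold raw counts of fragments per gene. Per the file headers these came from featureCounts of Subread 1.4.6-p2, set to paired fragments, reverse-strand counting, exons summed by gene and an Ensembl annotation of GRCh37. STAR 2.3.0 and SAMtools 0.1.19 stand in the submitters' processing notes, whereas the design text names Tophat2 for alignment. No source used here tells how fragments with several mapping places were treated. Exon lengths were taken from the deposited files. Of 63677 genes, 55665 were matched to a symbol by Ensembl ID, and 32842 had a count. The 4 libraries entered edgeR 4.0.16 (R 4.3.3) with TMM normalisation, filterByExpr (minimum count 10), robust dispersions and a quasi-likelihood test, two-sided, whose model held group and no covariate. Benjamini-Hochberg adjustment ran over the 19142 genes kept, and SE was taken from the F statistic. The procedure was tested on simulated data. Libraries totalled 63459322 to 72977082 counts. Beyond counting error, which dominates in genes of few fragments, values of a gene varied between libraries by a coefficient of 5.38%.

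Antigen genes and lists were chosen with earlier results of these data known. Named are ILF2, all 10 antigens, of each list up to 4 genes with the smallest adjusted p under 0.05 (or the 2 most abundant where none passed), and 3 genes nearest in pattern to the antigen with the smallest adjusted p. Other genes are named for their role or to complete a list, after their values were seen. Alternatives were DESeq2 1.42.0, limma-voom (limma 3.58.1), DESeq2 size factors or upper-quartile factors in edgeR, no low-count filter, a minimum of 1 CPM in 2 libraries, mitochondrial and small RNA genes left out, replicate number as a block, each library left out in turn and TPM in place of RPKM. A crossed pairing and a correction for exon GC content and length (mgcv 1.9.3) were added after seeing the data.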

Additional observations from a re-analysis of the deposited data

How the results depend on the processing

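The directions of the 9 tested antigens and of ILF2 were the same in every alternative setting run, and FCRL5, LY9 and ILF2 were called in each. The number of antigens called was 6 and lay between 2 and 8 with 1 library left out, the 2 coming without either non-silencing library. The number of all genes called was 3885 and lay between 2099 and 3721 with 1 library left out. Listed genes called numbered 53 and lay between 23 and 51. The cause of these lower counts was not tested beyond the loss of 1 library of 4. SDC1 missed the threshold in the replicate block (adjusted p = 0.055). CD47 passed with DESeq2 size factors in edgeR, no low-count filter, the 1 CPM filter, the crossed pairing and the GC and length correction, and GPRC5D with these last 2. GPRC5B, at -0.11 on the log2 scale and not called, lay between -0.28 and 0.08 with 1 library left out, with values of 0.036 without ILF2 shRNA replicate 1 and 0.082 without non-silencing replicate 1. The order of the 10 antigens by level was the same for TPM.

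The labels do not say whether the replicate numbers in the titles pair the libraries. Over 13737 genes the differences between replicates 1 and 2 had a correlation of -0.23 between the groups. This value rests on a single replicate difference in each group and cannot decide the pairing. With the replicate block 2588 genes, 33 listed genes and 5 antigens were called. Among the gamma-secretase genes 0 were called, with NCSTN and ADAM10 lost, as were BIRC3, CD48, FCRLA, FCRL2 and MCL1. The crossed pairing gave 5728 genes, 74 listed genes and 8 antigens. It joins the libraries along the sign of the correlation above and was added after seeing the data. Its higher counts are thus no independent support. The GC and length correction gave 5743, 74 and 8. Depth limits TNFRSF13B and TNFRSF13C, with 20 fragments or fewer in every library: TNFRSF13B was not tested, and TNFRSF13C had an SE of 0.51 on the log2 scale.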
